A study of Mus musculus with 18 samples.

Results

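The 9 genes described here are the SLAM family receptors Slamf1, Slamf6, Slamf7, Ly9, Cd48 and Cd84, the SH2 domain adaptors Sh2d1a and Sh2d2a, and the receptor Crtam. They were chosen by name, with earlier results of these data known, from the 23930 genes of an Ion AmpliSeq Transcriptome mouse panel. This targeted assay amplifies 1 short piece of each transcript and counts its reads. All 9 were on the panel. RNA came from CD4 and CD8 T cells sorted from the bone marrow of 3 kinds of mice, with 3 mice of each kind and 3 libraries in each of 6 groups. The pMT-10 mice given zinc in their drinking water for 30 days carry a transgene that makes the cytokine IL-10 from a metallothionein promoter, which zinc switches on and which is not restricted to T cells. The pMT-10 mice on control water carry the same transgene without zinc, and the C57BL/6 mice on zinc water carry no transgene. The sources used here do not give the mice's ages. The 3 kinds are called zinc-treated pMT-10, zinc-free pMT-10 and zinc-treated C57BL/6 below.

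Library totals ran from 10546798 to 18519474 reads. Cd4 and Cd8a fitted the labels in every group, and Il10 averaged 21.2 ± 4.71 CPM (counts per 1000000 reads) in CD4 cells of zinc-treated pMT-10 mice, 2.71 ± 1.16 CPM in zinc-free pMT-10 mice and 6.13 ± 2.76 CPM in zinc-treated C57BL/6 mice (SD, n = 3 each). In CD8 cells Il10 averaged 12.8 ± 9.62 CPM in zinc-treated pMT-10 mice and had 0 reads in all 6 control libraries, and reads of the transgene and of the mouse's own Il10 cannot be told apart. One chip carried the 12 libraries of mice given zinc and a second chip the other 6, so zinc and chip cannot be told apart. The transgenic and C57BL/6 mice given zinc share chip and water but differ in strain, and reads of sex-linked genes show that sex differed with strain. The 2 comparisons of zinc-treated pMT-10 mice within a cell type share the zinc-treated pMT-10 libraries, so their results are given side by side and not counted as separate evidence. The sample titles alternate between CD4 and CD8, but no label says which libraries share a mouse. The p-values rest on the spread between the 3 libraries of a group, estimated over all 6 groups together and drawn toward that of other genes.

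SLAM family receptors are immunoglobulin-type surface proteins of blood cells. Most bind a copy of themselves on a neighbouring cell, while CD48 is the ligand of 2B4, the product of Cd244. The tails of several of them, though not of glycolipid-anchored CD48, carry tyrosine motifs that can dock the small adaptor SAP, encoded by Sh2d1a. SAP brings in the kinase FYN. Which of the receptors use SAP in these cells was not tested. SAP is needed for the development of natural killer T cells and for lasting contact between follicular helper T cells and B cells, and its loss in humans causes X-linked lymphoproliferative disease. Sh2d2a encodes the T cell specific adaptor TSAd, which binds the kinase LCK. Crtam is an immunoglobulin-type receptor outside the SLAM family that binds CADM1 and is known from activated CD8 cells and from cytotoxic CD4 cells.

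Slamf7 was the only one of the 8 members tested that was called higher in zinc-treated pMT-10 mice against both controls in both cell types. The other calls differed in the cell type they were made in. In CD4 cells Crtam, Sh2d1a, Sh2d2a and Cd48 were higher against both controls, and Slamf6 was lower against zinc-treated C57BL/6. In CD8 cells Slamf1 was higher against both controls. The CD8 change minus the CD4 change itself passed the test against both controls for Crtam and Slamf1, against 1 control for Slamf6 and Sh2d1a, and against neither for Slamf7, Cd48, Sh2d2a and Ly9. The members that separate the cell types most in control mice, Slamf1 in CD4 cells and Crtam in CD8 cells, were thus each higher in the other cell type of zinc-treated pMT-10 mice. Cd84, a homophilic SLAM receptor, had 12 reads in zinc-treated pMT-10 CD8 replicate 1 and 1 read in zinc-treated C57BL/6 CD4 replicate 1, with 0 in the other 16 libraries, and was not tested. A count of 0 here allows up to 0.162 to 0.284 CPM, depending on the library, from counting error alone.

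**Figure D1:**
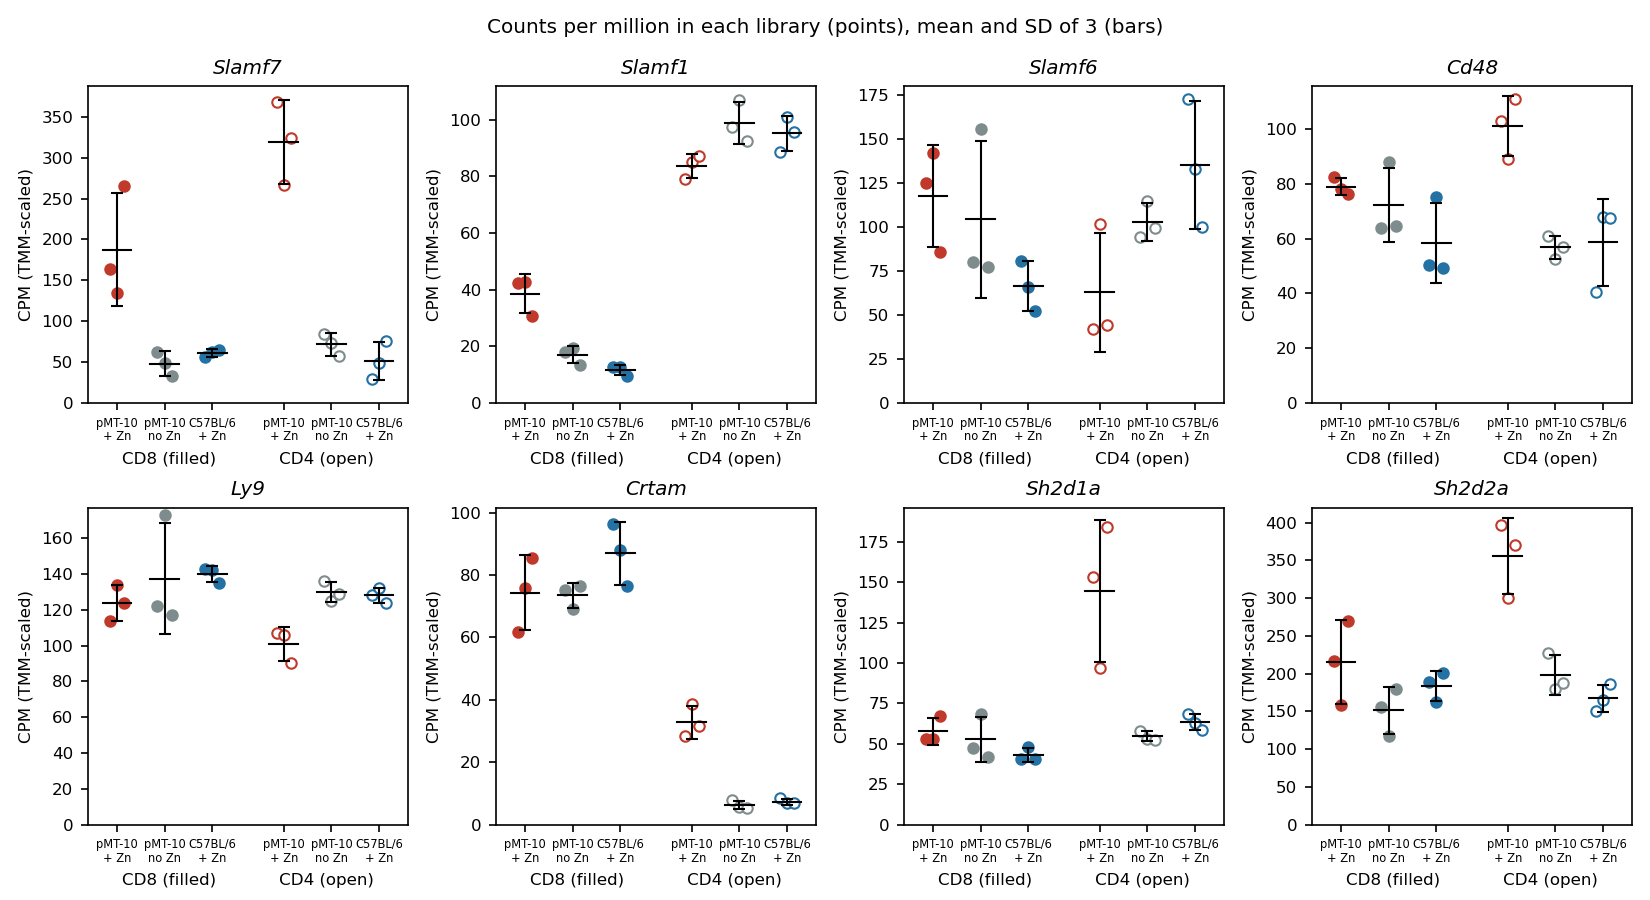
CPM (vertical axes, from 0) of the 8 tested members in each library, with CD8 groups filled and CD4 groups open, and zinc-treated pMT-10 mice in red, zinc-free pMT-10 mice in grey and zinc-treated C57BL/6 mice in blue. Bars are the mean and SD of 3 libraries. Slamf7 stands above both controls in both cell types, Crtam only in CD4 cells and Slamf1 only in CD8 cells.

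The 6 SLAM receptor genes among the members lie on chromosome 1 within 364.5 kb (GRCm38, GENCODE annotation). Their order is Ly9, Slamf7, Cd48, Slamf1, Cd84, Slamf6. Slamf7 (ENSMUSG00000038179.13, chr1:171632403-171653035) and Ly9 (ENSMUSG00000004707.14, chr1:171588624-171607410) are on the minus strand. Cd48 (ENSMUSG00000015355.13, chr1:171682009-171705258), Slamf1 (ENSMUSG00000015316.11, chr1:171767127-171801184), Cd84 (ENSMUSG00000038147.13, chr1:171839697-171890718) and Slamf6 (ENSMUSG00000015314.10, chr1:171917515-171953170) are on the plus strand. Sh2d2a (ENSMUSG00000028071.12) is at chr3:87846755-87855722, Crtam (ENSMUSG00000032021.14) at chr9:40969691-41004628 and Sh2d1a (ENSMUSG00000005696.11) at chrX:42502453-42529330. Where in each transcript the amplicon lies was not used here, so the counts do not separate isoforms.

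RefSeq (GRCm38.p6) gives promoters for 5 of the 9 members. Those of Slamf7, Slamf1 and Slamf6 are printed because these 3 genes of 1 locus differed in their response: called higher in both cell types, called higher in CD8 cells, and called lower in CD4 cells against C57BL/6 but not against zinc-free pMT-10. Each is the 250 bases before the RefSeq start, read 5′ to 3′ on the gene's own strand, with matches to the motifs named after the sequences in capitals. For Slamf7 that window lies inside the GENCODE gene span given above, whose 5′ end on the minus strand is base 171653035. The RefSeq and GENCODE starts of this gene thus differ.
Slamf7, chr1:171649000-171649249, minus strand: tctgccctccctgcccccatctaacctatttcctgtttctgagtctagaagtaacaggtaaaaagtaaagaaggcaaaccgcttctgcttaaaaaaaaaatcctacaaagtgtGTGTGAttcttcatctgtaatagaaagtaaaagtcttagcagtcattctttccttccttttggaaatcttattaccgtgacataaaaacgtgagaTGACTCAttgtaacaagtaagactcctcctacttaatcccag
Slamf1, chr1:171766882-171767131, plus strand: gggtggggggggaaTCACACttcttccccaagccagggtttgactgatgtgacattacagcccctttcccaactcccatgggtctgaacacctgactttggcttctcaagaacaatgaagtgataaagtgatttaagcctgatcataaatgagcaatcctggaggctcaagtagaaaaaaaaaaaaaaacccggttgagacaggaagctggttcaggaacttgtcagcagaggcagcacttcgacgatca
Slamf6, chr1:171917212-171917461, plus strand: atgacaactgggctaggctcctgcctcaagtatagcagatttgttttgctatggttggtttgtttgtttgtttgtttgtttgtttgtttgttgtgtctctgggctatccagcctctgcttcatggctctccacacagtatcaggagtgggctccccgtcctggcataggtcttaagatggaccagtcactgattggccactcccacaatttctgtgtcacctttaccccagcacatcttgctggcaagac
The motifs were searched on both strands and chosen after the sequences were seen: a T-box core TCACAC, held by 12.3% of all 32851 promoter windows of this length, an AP-1 site TGANTCA, held by 6.7%, a STAT site TTCNNNGAA, held by 7%, and a RUNX core TGTGGT, held by 14%. Slamf7 held 1 T-box match that starts at base -137 and 1 AP-1 match at -42, counted back from the start. Slamf1 held 1 T-box match at -236. Slamf6 held none of the 4. Cd48, not printed, held a T-box match at -72 that overlaps a RUNX match at -76. Cd84, not printed, held an AP-1 match at -229 and a RUNX match at -45. Such matches describe letters, and no binding was measured.

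Slamf7 encodes CRACC, a homophilic receptor of cytotoxic lymphocytes and plasma cells. In CD4 cells it stood at 368, 266 and 324 CPM in zinc-treated pMT-10 mice, at 84.9, 72.9 and 57.1 CPM in zinc-free pMT-10 mice and at 29.8, 49.5 and 76.1 CPM in zinc-treated C57BL/6 mice. The lowest zinc-treated pMT-10 library was thus more than 3 times the highest control library. The ratio of mean CPM was 6.17 against zinc-treated C57BL/6 (log2 2.63, SE 0.31, adjusted p = 7.39e-06 by edgeR's quasi-likelihood test with Benjamini-Hochberg adjustment over all genes, as for each adjusted p here) and 4.46 against zinc-free pMT-10 (log2 2.16, SE 0.30, adjusted p = 4.46e-05). In CD8 cells Slamf7 stood at 164, 134 and 265 CPM in zinc-treated pMT-10 mice, at 62.8, 48.6 and 32.7 CPM in zinc-free pMT-10 mice and at 55.9, 62.9 and 65.1 CPM in zinc-treated C57BL/6 mice. Again no control library reached a zinc-treated pMT-10 library. The log2 fold change there was 1.62 against zinc-treated C57BL/6 (SE 0.30, adjusted p = 0.0015) and 1.97 against zinc-free pMT-10 (SE 0.30, adjusted p = 0.000231). The CD8 change minus the CD4 change was -1.01 against zinc-treated C57BL/6 (95% interval -1.87 to -0.14, adjusted p = 0.164) and -0.19 against zinc-free pMT-10 (95% interval -1.05 to 0.67, adjusted p = 0.868), so a difference in the size of the change between cell types did not pass the test. Without zinc-treated C57BL/6 CD4 replicate 3, the highest CD4 library of that group, the first of these was -1.39 (adjusted p = 0.0336). Without the filter on low counts it was -1.02 (adjusted p = 0.00111), with an SE of 0.24 in place of 0.41.

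Slamf1 encodes CD150, a homophilic receptor that signals through SAP. In CD8 cells it stood at 42.4, 42.7 and 30.7 CPM in zinc-treated pMT-10 mice, at 18.1, 19.6 and 13.6 CPM in zinc-free pMT-10 mice and at 12.6, 12.6 and 9.57 CPM in zinc-treated C57BL/6 mice. The 3 groups did not overlap, with zinc-treated pMT-10 mice on top. The change was log2 1.74 against zinc-treated C57BL/6 (SE 0.18, adjusted p = 1.3e-06) and log2 1.18 against zinc-free pMT-10 (SE 0.17, adjusted p = 8.76e-05). In CD4 cells, where the gene is high in all mice, Slamf1 stood at 79.1, 84.9 and 87.3 CPM in zinc-treated pMT-10 mice, at 97.3, 107 and 92.5 CPM in zinc-free pMT-10 mice and at 88.7, 101 and 95.8 CPM in zinc-treated C57BL/6 mice. All 3 zinc-treated pMT-10 libraries lay below all 6 control libraries, but neither difference passed the test (log2 -0.18, 95% interval -0.52 to 0.15, against zinc-treated C57BL/6, and log2 -0.24, 95% interval -0.58 to 0.10, against zinc-free pMT-10).

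Slamf6, which encodes Ly108, a homophilic receptor found on naive and memory-like T cells, had libraries far apart within groups. In CD4 cells it stood at 42.3, 102 and 44.3 CPM in zinc-treated pMT-10 mice, at 94.4, 115 and 99.3 CPM in zinc-free pMT-10 mice and at 173, 133 and 100 CPM in zinc-treated C57BL/6 mice. Zinc-treated pMT-10 replicates 1 and 3 lay below every control library, and replicate 2 lay among them. Slamf6 fell by 1.12 on the log2 scale against zinc-treated C57BL/6 (SE 0.33, adjusted p = 0.0214), and against zinc-free pMT-10 the value was -0.72 (SE 0.32, adjusted p = 0.137). The call against zinc-treated C57BL/6 was lost without zinc-treated pMT-10 replicate 1 (-0.90, adjusted p = 0.11) or 3 (-0.92, adjusted p = 0.101), without zinc-treated C57BL/6 replicate 1 (-0.90, adjusted p = 0.103) or 2 (-1.13, adjusted p = 0.0512), and with only the libraries of the groups compared (-1.10, adjusted p = 0.0902). Without zinc-treated pMT-10 replicate 2, singled out after its values were seen, the difference from zinc-free pMT-10 was -1.25 (adjusted p = 0.00422), and without the filter on low counts it was -0.72 (adjusted p = 0.000634). In CD8 cells Slamf6 stood at 125, 142 and 85.6 CPM in zinc-treated pMT-10 mice, at 80.4, 156 and 77.1 CPM in zinc-free pMT-10 mice and at 80.7, 66.1 and 52.5 CPM in zinc-treated C57BL/6 mice. The zinc-treated pMT-10 libraries were above those of C57BL/6 and overlapped those of zinc-free pMT-10, and neither difference passed the test (log2 0.82, adjusted p = 0.126, for C57BL/6 and log2 0.17, adjusted p = 0.83, for zinc-free pMT-10). The difference from C57BL/6 was called without the filter (0.82, adjusted p = 0.000126) and with only the libraries of the groups compared (0.83, adjusted p = 0.0403).

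A read ratio within a library needs no scaling between libraries. Each ratio given here restates the members' own counts and is not separate evidence. The ratio of Slamf7 to Slamf6 reads in CD4 cells was 8.71, 2.62 and 7.32 in zinc-treated pMT-10 mice, 0.899, 0.633 and 0.575 in zinc-free pMT-10 mice and 0.172, 0.371 and 0.758 in zinc-treated C57BL/6 mice. It was higher in each zinc-treated pMT-10 CD4 library than in any control CD4 library. In CD8 cells it was 1.31, 0.942 and 3.1 in zinc-treated pMT-10 mice, 0.781, 0.311 and 0.424 in zinc-free pMT-10 mice and 0.692, 0.952 and 1.24 in zinc-treated C57BL/6 mice, so there the groups of zinc-treated mice overlapped. Because amplicons differ in yield, the ratio compares libraries and not the levels of the 2 genes.

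Cd48 encodes the glycolipid-anchored ligand of 2B4. In CD4 cells it stood at 103, 89.2 and 111 CPM in zinc-treated pMT-10 mice, at 60.9, 52.6 and 56.9 CPM in zinc-free pMT-10 mice and at 40.4, 67.8 and 67.7 CPM in zinc-treated C57BL/6 mice. The zinc-treated pMT-10 libraries lay above all controls. The change was log2 0.78 against zinc-treated C57BL/6 (SE 0.20, adjusted p = 0.00674) and log2 0.83 against zinc-free pMT-10 (SE 0.20, adjusted p = 0.00431). Without zinc-treated C57BL/6 CD4 replicate 1, the lowest library, the first value was 0.57 (adjusted p = 0.0522). In CD8 cells Cd48 averaged 78.9 ± 3.11 CPM in zinc-treated pMT-10 mice, 72.2 ± 13.6 CPM in zinc-free pMT-10 mice and 58.3 ± 14.5 CPM in zinc-treated C57BL/6 mice (SD, n = 3 each), and neither difference passed the test (log2 0.13, adjusted p = 0.769, for zinc-free pMT-10 and log2 0.44, adjusted p = 0.18, for C57BL/6, or 0.66, adjusted p = 0.0463, without C57BL/6 CD8 replicate 2). The CD8 change minus the CD4 change was -0.34 against C57BL/6 (95% interval -0.92 to 0.23, adjusted p = 0.504) and -0.70 against zinc-free pMT-10 (95% interval -1.27 to -0.13, adjusted p = 0.165).

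Ly9 encodes CD229, a homophilic receptor of T and B cells, and had group means close together, from 101 to 140 CPM. In CD4 cells it stood at 107, 106 and 90.2 CPM in zinc-treated pMT-10 mice, at 136, 125 and 129 CPM in zinc-free pMT-10 mice and at 128, 132 and 124 CPM in zinc-treated C57BL/6 mice. The zinc-treated pMT-10 libraries lay below all 6 controls, with log2 values of -0.34 against zinc-treated C57BL/6 (SE 0.14, adjusted p = 0.102) and -0.36 against zinc-free pMT-10 (SE 0.14, adjusted p = 0.0798), which did not pass the test. Scaled by library size alone, which shifted the median of all genes to -0.155 and -0.196, both passed it (-0.45, adjusted p = 0.0224, and -0.51, adjusted p = 0.00992), and with only the groups compared the difference from zinc-free pMT-10 did (-0.33, adjusted p = 0.0404). In CD8 cells Ly9 averaged 124 ± 10.3 CPM in zinc-treated pMT-10 mice, 137 ± 31.3 CPM in zinc-free pMT-10 mice and 140 ± 4.08 CPM in zinc-treated C57BL/6 mice (SD, n = 3 each). The gene overlaps Cd244 on the opposite strand, and whether counting used strand could not be read from the sources used here, so reads of this pair may not be told apart.

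Crtam, the receptor of CADM1, stood at 28.3, 38.6 and 31.5 CPM in CD4 cells of zinc-treated pMT-10 mice, at 7.82, 5.76 and 5.41 CPM in zinc-free pMT-10 mice and at 8.51, 6.79 and 6.83 CPM in zinc-treated C57BL/6 mice. The groups were far apart: the lowest zinc-treated pMT-10 library was over 3 times the highest control. The ratio of mean CPM was 4.44 against zinc-treated C57BL/6 (log2 2.15, SE 0.19, adjusted p = 1.39e-07) and 5.18 against zinc-free pMT-10 (log2 2.37, SE 0.19, adjusted p = 4.54e-08). In CD8 cells Crtam stood at 61.6, 75.9 and 85.4 CPM in zinc-treated pMT-10 mice, at 75.1, 69.0 and 76.3 CPM in zinc-free pMT-10 mice and at 96.4, 88.1 and 76.4 CPM in zinc-treated C57BL/6 mice. These groups overlapped, with log2 differences of 0.02 from zinc-free pMT-10 (95% interval -0.34 to 0.37) and -0.23 from zinc-treated C57BL/6 (95% interval -0.58 to 0.13) that did not pass the test. The CD8 change minus the CD4 change was -2.38 against zinc-treated C57BL/6 (SE 0.25, adjusted p = 5.36e-05) and -2.36 against zinc-free pMT-10 (SE 0.25, adjusted p = 2.53e-05). Expression in zinc-treated pMT-10 CD4 cells stayed below that of each CD8 library.

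The adaptor gene Sh2d1a stood at 153, 96.9 and 184 CPM in CD4 cells of zinc-treated pMT-10 mice, at 58.1, 53.2 and 52.6 CPM in zinc-free pMT-10 mice and at 68.3, 63.1 and 58.7 CPM in zinc-treated C57BL/6 mice. Every zinc-treated pMT-10 library was above every control, with replicate 2 the nearest to them, as it was for Slamf6. The change was log2 1.19 against zinc-treated C57BL/6 (SE 0.20, adjusted p = 0.000226) and log2 1.41 against zinc-free pMT-10 (SE 0.20, adjusted p = 4.02e-05). The gene is X-linked and sex differed between pMT-10 and C57BL/6 mice, and the part of sex in the difference from C57BL/6 was not tested. In CD8 cells Sh2d1a averaged 57.7 ± 8.16 CPM in zinc-treated pMT-10 mice, 52.7 ± 14.1 CPM in zinc-free pMT-10 mice and 43.2 ± 4.28 CPM in zinc-treated C57BL/6 mice (SD, n = 3 each), with neither difference called (log2 0.14, adjusted p = 0.768, for zinc-free pMT-10 and log2 0.42, adjusted p = 0.222, for C57BL/6).

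Sh2d2a stood at 397, 300 and 370 CPM in CD4 cells of zinc-treated pMT-10 mice, at 228, 179 and 188 CPM in zinc-free pMT-10 mice and at 151, 165 and 186 CPM in zinc-treated C57BL/6 mice. The zinc-treated pMT-10 libraries were above all controls, by log2 1.09 against zinc-treated C57BL/6 (SE 0.18, adjusted p = 0.000198) and log2 0.84 against zinc-free pMT-10 (SE 0.18, adjusted p = 0.00202). In CD8 cells it stood at 217, 159 and 270 CPM in zinc-treated pMT-10 mice, at 156, 118 and 180 CPM in zinc-free pMT-10 mice and at 189, 162 and 201 CPM in zinc-treated C57BL/6 mice. The CD8 groups overlapped, and the log2 differences of 0.51 from zinc-free pMT-10 (adjusted p = 0.095) and 0.23 from zinc-treated C57BL/6 (adjusted p = 0.489) did not pass the test, though DESeq2 called the first (0.53, adjusted p = 0.0413), as did the fits without zinc-treated pMT-10 CD8 replicate 2 (0.70, adjusted p = 0.0165) and without the filter (0.50, adjusted p = 0.0407). The CD8 change minus the CD4 change of Sh2d2a was -0.86 against C57BL/6 (SE 0.26, adjusted p = 0.0516) and -0.34 against zinc-free pMT-10 (SE 0.25, adjusted p = 0.519), so a difference between the cell types did not pass the test. Against C57BL/6 it passed with RLE scaling (-0.86, adjusted p = 0.0466), with DESeq2 (-0.86, adjusted p = 0.0179), without the filter (-0.87, adjusted p = 0.00529), and without C57BL/6 CD8 replicate 2 or CD4 replicate 3 or zinc-treated pMT-10 CD4 replicate 2 or CD8 replicate 3 (adjusted p from 0.0186 to 0.0441).

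**Figure D2:**
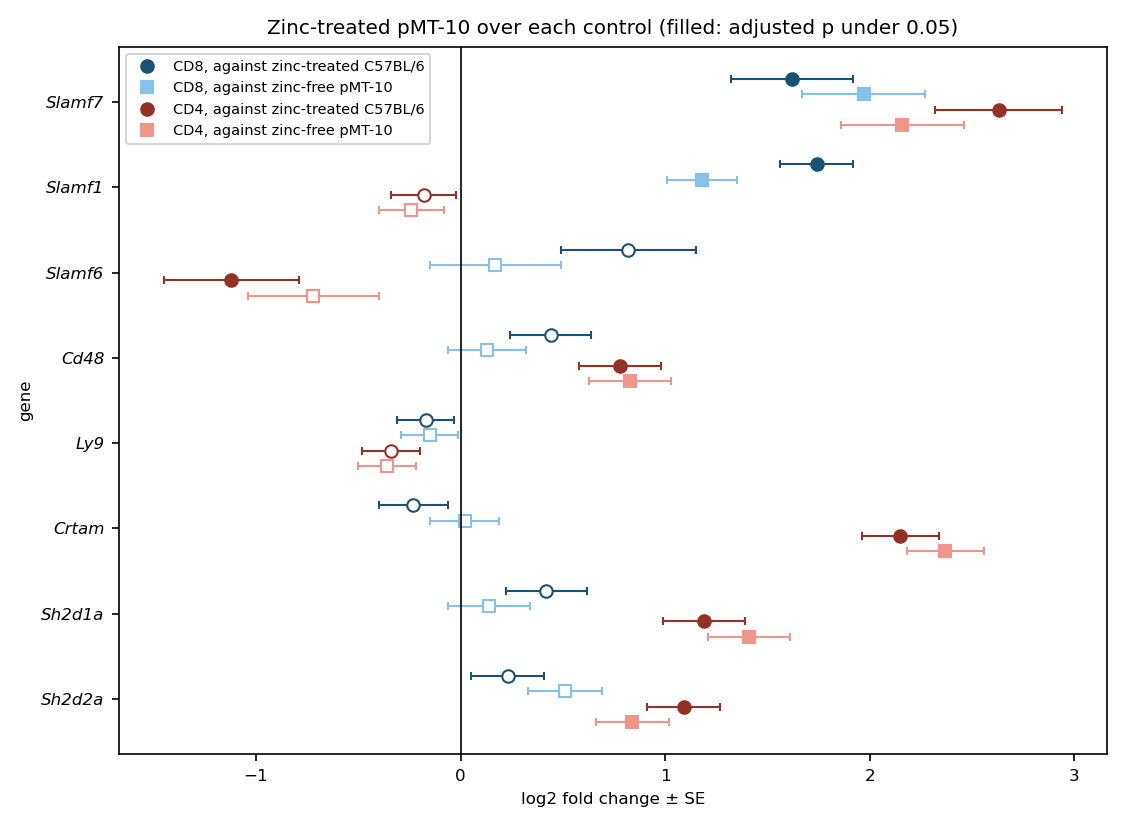
Log2 fold change with its SE (horizontal axis) of zinc-treated pMT-10 mice over each control for the 8 tested members, with CD8 cells in blue and CD4 cells in red, zinc-treated C57BL/6 as control in dark circles and zinc-free pMT-10 in light squares. Filled symbols have an adjusted p under 0.05. The Slamf7 values run from 1.62 to 2.63, and all 4 are filled.

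The members and the lists below were chosen with earlier results of these data known. Their counts beside the share of all genes are therefore a description and not a test. Counted together, in CD4 cells 5 of the 8 members tested were higher and 1 was lower in zinc-treated pMT-10 than in zinc-treated C57BL/6 mice, where 18.7% of the 11316 genes tested were called, 9.29% of them higher and 9.40% lower. Against zinc-free pMT-10 5 were higher and 0 lower, where 18.8% of all genes were called, 9.38% higher and 9.40% lower. In CD8 cells 2 members were higher and 0 lower against zinc-treated C57BL/6, where 8.81% of all genes were called, 5.68% higher and 3.13% lower, and 2 were higher and 0 lower against zinc-free pMT-10, where 7.74% were, 5.10% higher and 2.64% lower. The median log2 difference of the members was 0.94 and 0.84 in CD4 cells and 0.43 and 0.15 in CD8 cells, with C57BL/6 first, beside -0.05 and -0.05 in CD4 cells and 0 and 0 in CD8 cells for all genes. Libraries did not overlap for 5 members above and 2 below zinc-treated C57BL/6 in CD4 cells, where 18.6% of all genes lay above and 18.8% below. In CD8 cells this held for 5 members above and 1 below, where 12.2% of all genes lay above and 11.4% below. Against zinc-free pMT-10 it held in CD4 cells for 5 above and 2 below (all genes 21.0% and 22.3%) and in CD8 cells for 2 above and 0 below (all genes 11.9% and 11.2%). Between zinc-free pMT-10 and zinc-treated C57BL/6 mice 0 of the 8 members were called in CD4 cells (background 0.141%) and 0 in CD8 cells (background 0.0972%) by edgeR, and DESeq2 called 0 in each. At an unadjusted p under 0.05 there were 0 in CD4 cells and 1 in CD8 cells, Slamf1 (log2 0.56, SE 0.18, adjusted p = 0.493), and without the filter on low counts Slamf6 was called in CD8 cells (log2 0.66, adjusted p = 0.0368).

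The cell types were then compared within each kind of mouse, as unpaired groups: the 3 mice of a kind may each have given a CD4 and a CD8 library, but no label says which libraries share a mouse. Crtam was the member highest in CD8 over CD4 cells: log2 1.18 in zinc-treated pMT-10 mice (SE 0.17, adjusted p = 3.31e-05), 3.54 in zinc-free pMT-10 mice (SE 0.19, adjusted p = 4.01e-11) and 3.56 in zinc-treated C57BL/6 mice (SE 0.20, adjusted p = 3.99e-11). Slamf1 was the member lowest in CD8 cells of control mice, at log2 -1.12 in zinc-treated pMT-10 mice (SE 0.17, adjusted p = 3.39e-05), -2.54 in zinc-free pMT-10 mice (SE 0.17, adjusted p = 9.36e-10) and -3.04 in zinc-treated C57BL/6 mice (SE 0.18, adjusted p = 1.13e-10). For both genes the gap between the cell types was smaller in zinc-treated pMT-10 mice, from opposite sides: Crtam was higher in their CD4 cells and Slamf1 in their CD8 cells. For Slamf1 the CD8 change minus the CD4 change was 1.92 against zinc-treated C57BL/6 (SE 0.24, adjusted p = 0.000107) and 1.42 against zinc-free pMT-10 (SE 0.23, adjusted p = 0.00164). Of all genes 5.49% and 3.78% were called in these tests of the difference, with 3 of the 8 members called in each. The ratio of Slamf1 to Crtam reads within a library was 0.688, 0.563 and 0.359 in CD8 cells of zinc-treated pMT-10 mice, against 0.125 to 0.284 in control CD8 libraries. In CD4 cells it was 2.8, 2.2 and 2.77 in zinc-treated pMT-10 mice and 10.4 to 18.5 in control libraries.

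Other members were called between the cell types in some mice only. In zinc-treated pMT-10 mice 5 of the 8 members were called, where 28.1% of all genes were (13.4% higher and 14.7% lower in CD8 cells): besides Crtam and Slamf1, Sh2d1a was lower in CD8 cells (log2 -1.33, SE 0.20, adjusted p = 4.9e-05), Sh2d2a was lower (log2 -0.72, SE 0.18, adjusted p = 0.00468) and Slamf6 was higher (log2 0.91, SE 0.33, adjusted p = 0.0444). In zinc-free pMT-10 mice the called members were Slamf1 and Crtam, where 21.7% of all genes were called (8.94% higher and 12.8% lower). In zinc-treated C57BL/6 mice Slamf6 was called too, as lower in CD8 cells (log2 -1.03, SE 0.33, adjusted p = 0.0288), where 22.2% of all genes were called (9.28% higher and 12.9% lower). Sh2d1a narrowly missed there (log2 -0.55, SE 0.20, adjusted p = 0.0549), though every CD8 library lay below every CD4 library. It was called lower in CD8 cells with library size scaling (adjusted p = 0.0265), without the filter (0.0252), with only the groups compared (0.0411) and with DESeq2 (0.0386). Slamf7 narrowly missed in zinc-treated pMT-10 mice (log2 -0.77, SE 0.29, adjusted p = 0.0556) and was called lower in CD8 cells with RLE scaling (adjusted p = 0.0489), without robust estimation (0.0482), without the filter (7.05e-05), with only the groups compared (0.0348), with DESeq2 (0.0211), and without zinc-treated pMT-10 CD4 replicate 2 (0.0444) or CD8 replicate 3 (0.00978). The Slamf6 difference between the cell types thus had opposite signs in zinc-treated pMT-10 and zinc-treated C57BL/6 mice, and the difference of these differences was 1.94 (SE 0.46, adjusted p = 0.0197). The first of these 3 Slamf6 calls was lost without zinc-treated pMT-10 CD4 replicate 1 or 3 or CD8 replicate 1 or 2 (adjusted p up to 0.176), and with RLE scaling (0.052), DESeq2 (0.0722) or only the groups compared (0.0907). The C57BL/6 call was lost without CD4 replicate 1 or 2 or CD8 replicate 2 or 3 (adjusted p up to 0.123). The difference of the differences was lost without C57BL/6 CD4 replicate 1 or CD8 replicate 3, or without zinc-treated pMT-10 CD4 replicate 1 or CD8 replicate 2 (adjusted p up to 0.0615). For Sh2d1a the CD8 change minus the CD4 change was -1.27 against zinc-free pMT-10 (SE 0.28, adjusted p = 0.0163), a call that was lost without zinc-treated pMT-10 CD4 replicate 1 (-1.23, adjusted p = 0.054) or 3 (-1.06, adjusted p = 0.0567). Against zinc-treated C57BL/6 it was -0.77 (SE 0.29, adjusted p = 0.116), or -0.99 without zinc-treated pMT-10 CD4 replicate 2 (adjusted p = 0.0204) and -0.79 without the filter (adjusted p = 0.0446).

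**Figure D3:**
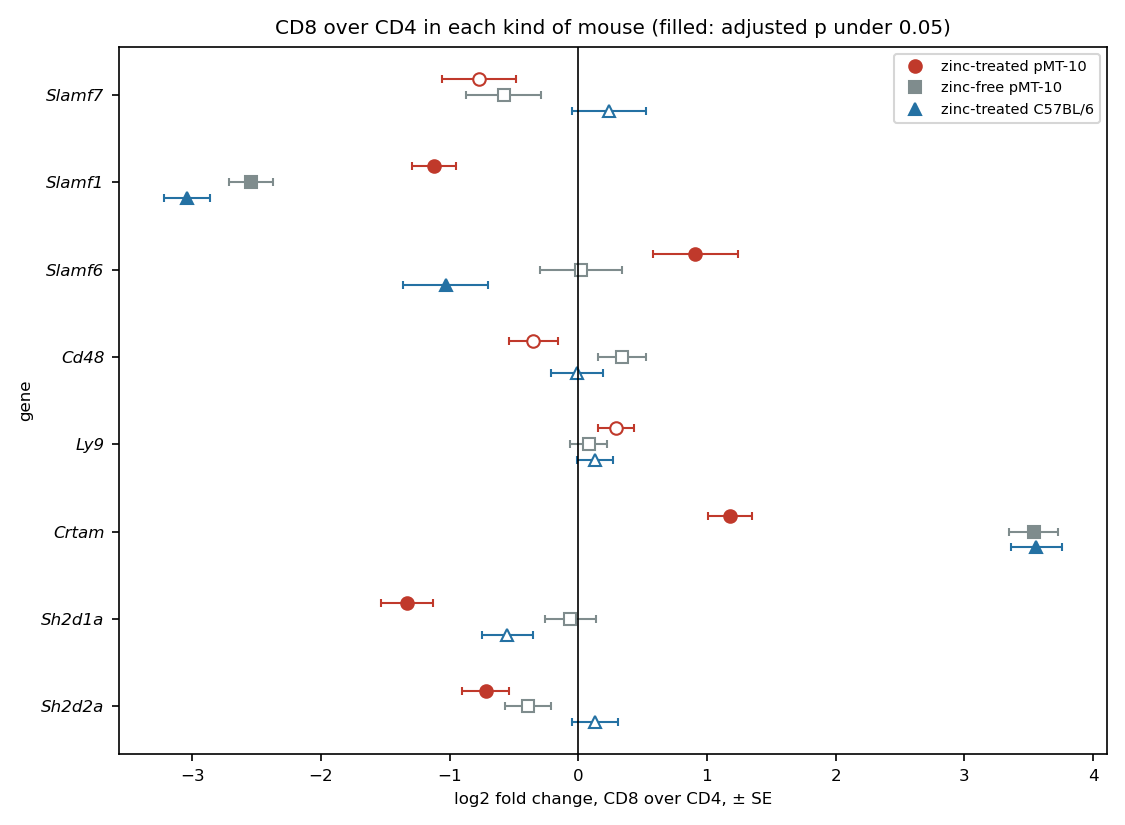
Log2 fold change of CD8 over CD4 cells with its SE (horizontal axis) for the 8 tested members in zinc-treated pMT-10 mice (red circles), zinc-free pMT-10 mice (grey squares) and zinc-treated C57BL/6 mice (blue triangles). Filled symbols have an adjusted p under 0.05. Slamf1 at -1.12 and Crtam at 1.18 in zinc-treated pMT-10 mice lie nearer 0 than in either control, and Slamf6 changes sides.

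The neighbours of the receptor genes on chromosome 1 were read from a list of 33 genes on the panel, of which 24 were tested. In CD4 cells 4 were higher and 0 lower in zinc-treated pMT-10 than in zinc-treated C57BL/6 mice (all genes 9.29% and 9.40%), with a median log2 difference of -0.03, and in CD8 cells 1 was higher and 1 lower (all genes 5.68% and 3.13%), with a median of -0.02. Against zinc-free pMT-10, 3 were higher and 0 lower in CD4 cells (all genes 9.38% and 9.40%) and 1 was higher and 1 lower in CD8 cells (all genes 5.10% and 2.64%). Of these CD4 calls, those of Ufc1 (adjusted p up to 0.105) and Pex19 (up to 0.103) were lost in some alternative fits. The called gene with the highest fold among them was Cd244, whose product 2B4 is itself a SLAM receptor and binds CD48. In CD8 cells Cd244 averaged 26.9 ± 9.2 CPM in zinc-treated pMT-10 mice, 1.13 ± 0.842 CPM in zinc-free pMT-10 mice and 1.46 ± 1.5 CPM in zinc-treated C57BL/6 mice (SD, n = 3 each). The change was log2 4.15 against zinc-treated C57BL/6 (SE 0.95, adjusted p = 0.00917), or 5.42 without zinc-treated C57BL/6 CD8 replicate 3 (adjusted p = 0.00895), and log2 4.62 against zinc-free pMT-10 (SE 0.98, adjusted p = 0.00551). In CD4 cells Cd244 was low in all groups, at 4.11 ± 3.33 CPM in zinc-treated pMT-10 mice, 0.684 ± 0.604 CPM in zinc-free pMT-10 mice and 0.259 ± 0.236 CPM in zinc-treated C57BL/6 mice. It was called there against zinc-treated C57BL/6 only (log2 3.95, adjusted p = 0.0164), and not without zinc-treated C57BL/6 replicate 1 (3.38, adjusted p = 0.0685) or zinc-treated pMT-10 replicate 3 (3.14, adjusted p = 0.0767). Without zinc-treated C57BL/6 CD4 replicate 2 the value was 4.66 (adjusted p = 0.0389). The other neighbours called higher in CD4 cells changed less, with log2 0.45 for Arhgap30, 0.64 for Ufc1 and 0.78 for Pex19 against C57BL/6. The lower gene in CD8 cells was Fcer1g against C57BL/6 (log2 -1.70, adjusted p = 0.033), a call lost without C57BL/6 CD8 replicate 2 (-1.15, adjusted p = 0.164) or zinc-treated pMT-10 CD8 replicate 1 (-1.43, adjusted p = 0.135) or 3 (-1.69, adjusted p = 0.0861), and Pea15a against zinc-free pMT-10 (log2 -0.70, adjusted p = 0.00562).

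**Figure D4:**
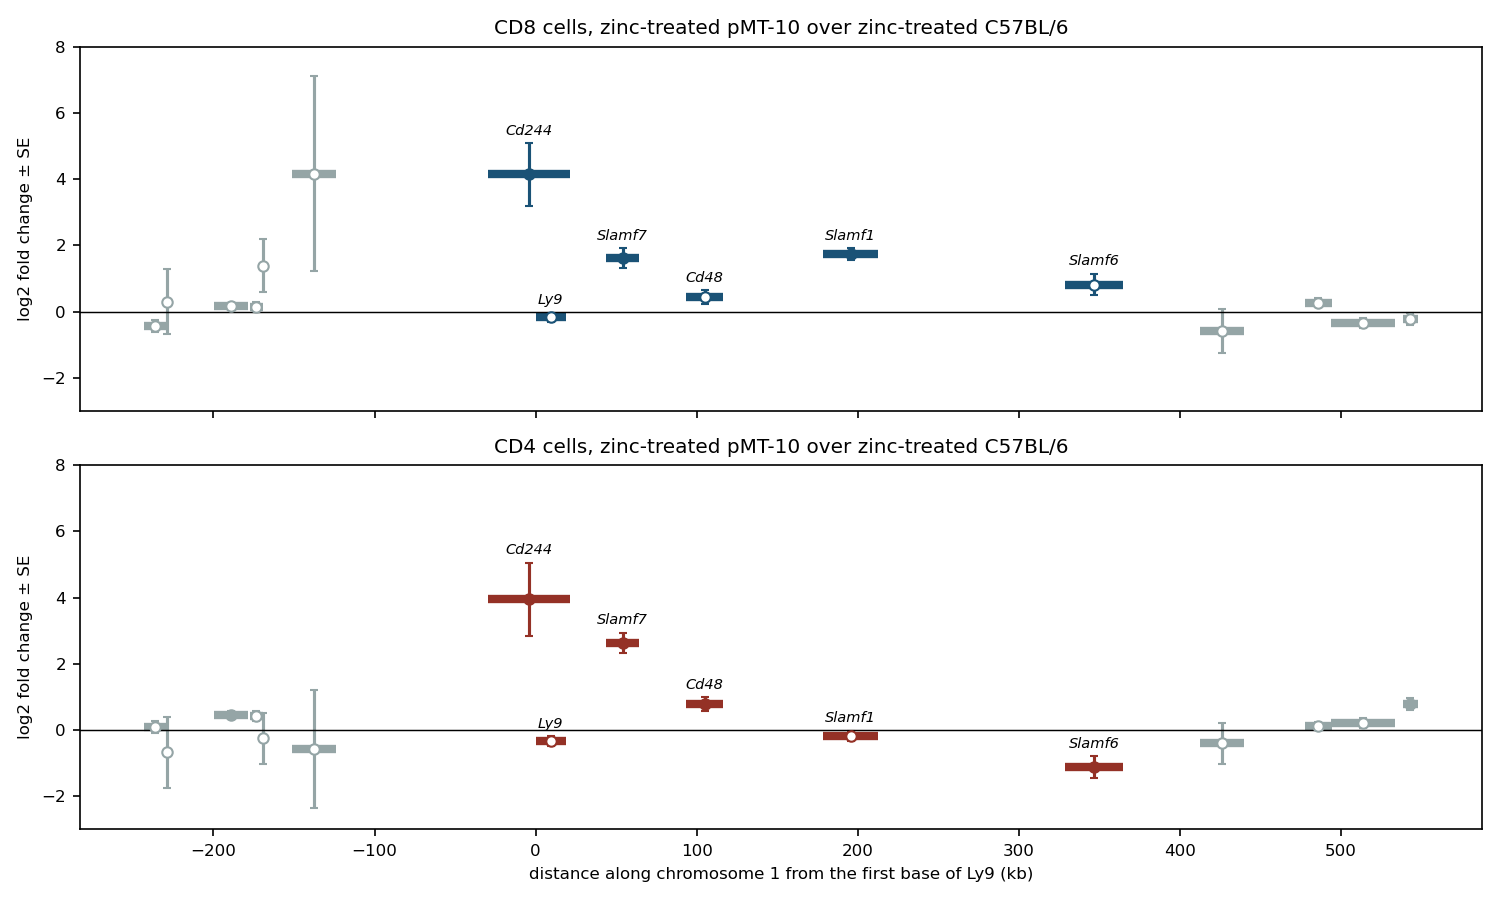
Log2 fold change with its SE (vertical axis) of zinc-treated pMT-10 over zinc-treated C57BL/6 mice along chromosome 1, in CD8 cells (top) and CD4 cells (bottom), with the distance in kb from the first base of Ly9 on the horizontal axis. Horizontal bars span each tested gene near the cluster, SLAM receptor genes in colour and other neighbours in grey, and filled points have an adjusted p under 0.05. Cd244 and Slamf7 are high in both panels, Slamf1 in the upper alone, Slamf6 lies on opposite sides of 0, and Cd84, not tested, is absent.

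The partners of these receptors were read from a list of 23 panel genes that excludes the members, of which 18 were tested. In CD4 cells 7 were higher and 2 lower in zinc-treated pMT-10 than in zinc-treated C57BL/6 mice (all genes 9.29% and 9.40%), with a median log2 difference of 0.33 (all genes -0.05). Against zinc-free pMT-10 mice 6 were higher and 2 lower (all genes 9.38% and 9.40%), with a median of 0.28 (all genes -0.05). Some alternative fits lost the calls of Inpp5d (adjusted p up to 0.107), Cd226 (up to 0.105), Tigit (up to 0.137) and Cd244 against C57BL/6. Against zinc-free pMT-10 some lost those of Inpp5d (up to 0.112), Cd2 (up to 0.116) and Sh2d3c (up to 0.0634). Fyn, the kinase that SAP recruits, averaged 542 ± 108 CPM in CD4 cells of zinc-treated pMT-10 mice, 219 ± 6.51 CPM in zinc-free pMT-10 mice and 224 ± 24.5 CPM in zinc-treated C57BL/6 mice (SD, n = 3 each). It was higher against zinc-treated C57BL/6 by log2 1.28 (SE 0.17, adjusted p = 1.24e-05) and against zinc-free pMT-10 by log2 1.31 (SE 0.17, adjusted p = 8.85e-06). Ptpn6, the gene of the phosphatase SHP-1, which can dock to the same receptor tails, averaged 98 ± 35.3 CPM in zinc-treated pMT-10 mice, 193 ± 22 CPM in zinc-free pMT-10 mice and 230 ± 26.1 CPM in zinc-treated C57BL/6 mice. It was lower by log2 -1.23 against zinc-treated C57BL/6 (SE 0.18, adjusted p = 3.75e-05) and -0.98 against zinc-free pMT-10 (SE 0.18, adjusted p = 0.000392). Themis, whose product binds SHP-1 in T cells, averaged 332 ± 48.3 CPM in zinc-treated pMT-10 mice, 158 ± 22.8 CPM in zinc-free pMT-10 mice and 169 ± 43.6 CPM in zinc-treated C57BL/6 mice, and was higher against both (log2 1.08, adjusted p = 0.000211, and log2 0.97, adjusted p = 0.000585). Lck, the kinase bound by TSAd, was not called in CD4 cells against either control (log2 0.52, adjusted p = 0.056, for zinc-free pMT-10 and log2 0.40, adjusted p = 0.151, for C57BL/6). Scrib, a polarity protein that CRTAM binds, was lower against both controls (log2 -0.73, adjusted p = 0.00178 and 0.00175). Cadm1, the ligand gene of Crtam, was not tested and averaged no more than 0.284 CPM in any group.

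In CD8 cells 2 of the 18 partner genes were higher and 1 lower against zinc-treated C57BL/6 (all genes 5.68% and 3.13%), with a median log2 difference of 0.02, and 2 were higher and 0 lower against zinc-free pMT-10 (all genes 5.10% and 2.64%), with a median of -0.04. Counts this small were not tested against those shares, and all genes had medians of 0. The higher ones were Cd244 and Tigit, an inhibitory receptor of the nectin-binding family. Tigit averaged 38.4 ± 17.1 CPM in zinc-treated pMT-10 mice, 1.3 ± 0.481 CPM in zinc-free pMT-10 mice and 1.98 ± 0.5 CPM in zinc-treated C57BL/6 mice (SD, n = 3 each; log2 4.26 against zinc-treated C57BL/6, adjusted p = 2.76e-07). Ptpn6 was the lower one (log2 -0.61, adjusted p = 0.0298), a call lost in each of the 5 fits without zinc-treated C57BL/6 CD8 replicate 1 or 3 or zinc-treated pMT-10 CD8 replicate 1, 2 or 3 (adjusted p from 0.0528 to 0.0877). Fyn was not called in CD8 cells (log2 0.36, adjusted p = 0.184, for C57BL/6 and log2 0.49, adjusted p = 0.073, for zinc-free pMT-10). Between the control groups 0 of the 18 partner genes were called in either cell type.

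In sorted bulk samples fewer cells of a type and less RNA per cell cannot be told apart, so genes of other cells that use these receptors were read beside them. Plasma cells and natural killer cells express Slamf7. Of the 5 plasma cell genes on the panel, Sdc1 lay between 0 and 0.599 CPM and Jchain at 0 in CD4 cells of zinc-treated pMT-10 mice. The summed plasma cell list was 348 to 420 CPM there, 210 to 237 CPM in zinc-free pMT-10 mice and 207 to 269 CPM in zinc-treated C57BL/6 mice, almost wholly from Prdm1 and Xbp1, which T cells also express. The natural killer gene Ncr1 was at 0 in all 6 libraries of zinc-treated pMT-10 mice. The summed list of 5 natural killer genes was 297 to 378 CPM in CD4 cells of zinc-treated pMT-10 mice, 186 to 214 CPM in zinc-free pMT-10 mice and 55.2 to 73.6 CPM in zinc-treated C57BL/6 mice, with Eomes, which effector T cells also express, at 335 ± 46.9, 12.3 ± 4.56 and 20.2 ± 8.33 CPM. The other natural killer genes tested were lower there: Klrb1c, most of the sum in zinc-free pMT-10 mice, averaged 9.44 ± 5.15, 171 ± 11.8 and 39.9 ± 5.08 CPM, and Klre1 averaged 1.2 ± 0.388, 14.5 ± 2.16 and 5.4 ± 2.11 CPM in the same order (Klre1 log2 -3.59, adjusted p = 1.43e-06, for zinc-free pMT-10 and log2 -2.16, adjusted p = 0.000551, for C57BL/6). Pax5 of B cells was at 0 in all 18 libraries, and the summed B cell list was 6.59 to 21 CPM in CD4 cells of zinc-treated pMT-10 mice, 29.6 to 37.3 CPM in zinc-free pMT-10 mice and 26.9 to 32.4 CPM in zinc-treated C57BL/6 mice. The platelet gene Pf4 stood at 71 CPM in zinc-treated pMT-10 CD4 replicate 3 and at most at 1.37 CPM elsewhere, and without that library Slamf7, Crtam, Sh2d1a, Sh2d2a and Cd48 kept their CD4 calls. The 6 T cell genes read beside these summed to 6650 to 8080 CPM in CD4 cells of zinc-treated pMT-10 mice, 4270 to 4490 CPM in zinc-free pMT-10 mice and 4650 to 5450 CPM in zinc-treated C57BL/6 mice. Of them Cd3g (log2 0.83, adjusted p = 0.000173, for C57BL/6 and 1.18, adjusted p = 3.63e-06, for zinc-free pMT-10) was called higher against both. So was Cd3e (0.68, adjusted p = 0.00066, and 0.85, adjusted p = 6.82e-05, in the same order). Cd3d and Cd2 were called higher against zinc-free pMT-10 only, and Cd5 and Lck against neither. In CD8 cells the plasma cell list summed to 112 to 152 CPM in zinc-treated pMT-10 mice, 63.7 to 88.4 CPM in zinc-free pMT-10 mice and 70.3 to 118 CPM in zinc-treated C57BL/6 mice, and the natural killer list to 155 to 258, 151 to 188 and 140 to 193 CPM in the same order of mice. The part of these lists in the members' results was not tested.

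Across the 18 libraries the genes with the pattern most like each member, by Pearson's r of log2(CPM + 1), were Lamc1 (0.978) and Trib1 (0.977) for Slamf1, Gem (0.968) and Ociad2 (0.939) for Slamf7, Mcoln2 (0.972) and Bend4 (0.959) for Crtam, Dusp9 (0.938) and Esm1 (0.93) for Sh2d1a, and Tnfrsf1a (0.946) and Pik3cg (0.942) for Sh2d2a. The likeness was weaker for Cd48, with Ift52 (0.916) and Psmb9 (0.91), for Ly9, with Otud1 (0.879) and Hdac2 (0.877), and for Slamf6, with Rab11fip2 (0.837) and Itpr2 (0.835). Among the members themselves Slamf7 ran closest to Sh2d2a (r = 0.85), and Slamf1 and Crtam ran most opposite (r = -0.84). These values describe 18 libraries that share 6 groups and carry no test.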

How the data were processed

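RNA of sorted bone marrow T cells was read out by targeted sequencing on an Ion AmpliSeq mouse transcriptome panel, per the labels' protocols. The deposited values are read counts per amplicon, 1 amplicon per gene, left unscaled by the authors. The genome build is mm10 per the submitters' processing notes, and the sources used here name no aligner or counter. The files' gene symbols were matched to GENCODE positions on GRCm38, the same assembly as mm10. Columns were mapped to samples by barcode, and replicate numbers follow the order of the records and pair nothing.

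Genes were filtered with filterByExpr, which left 11316, scaled with TMM and fitted with edgeR 4.0.16 (R 4.3.3) by the robust quasi-likelihood method, with a mean for each of the 6 groups and all 18 libraries in 1 fit. Calls were made at 0.05 after Benjamini-Hochberg adjustment across the tested genes. CPM values use TMM-scaled library sizes. The procedure was tested on simulated data. Alternatives were RLE or library size scaling, no filter, DESeq2 1.42.0, only the groups compared, no robust estimation, and leaving out each library. All 9 members were named, along with called genes of the lists and the 2 genes most like each member. Members and lists were chosen with earlier results of these data known.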

Additional observations from a re-analysis of the deposited data

Results flagged for a closer look

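In 6 results the CD8 and CD4 cells of zinc-treated pMT-10 mice departed from controls by unequal amounts, each tested as the CD8 change minus the CD4 change on the log2 scale by edgeR's quasi-likelihood test. For Crtam it was -2.38 against zinc-treated C57BL/6 (SE 0.25, adjusted p = 5.36e-05) and -2.36 against zinc-free pMT-10 (SE 0.25, adjusted p = 2.53e-05), the CD8 groups overlapping and the CD4 groups standing apart. For Slamf1 it was 1.92 against zinc-treated C57BL/6 (SE 0.24, adjusted p = 0.000107) and 1.42 against zinc-free pMT-10 (SE 0.23, adjusted p = 0.00164), where the CD8 groups stood apart. For Slamf6 it was 1.94 against zinc-treated C57BL/6 (SE 0.46, adjusted p = 0.0197), with a CD4 change that was called and a CD8 change that was not. For Sh2d1a it was -1.27 against zinc-free pMT-10 (SE 0.28, adjusted p = 0.0163), with the CD4 change alone called.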

How the results depend on the processing

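Of 88 member results, 31 were called, and 25 of these kept the call in every fit. The 6 that did not were 4 of Slamf6, 1 of Cd48 and 1 of Sh2d1a, given beside their results. Another 15 results, not called, were called in at least 1 fit. Where a call was gained without the filter on low counts, the value hardly moved and the SE was smaller. For Slamf6 in CD8 cells against zinc-treated C57BL/6, for example, the SE was 0.175 in place of 0.33. Those calls rest on a smaller estimated spread and not on a larger difference. No paired fit was made. The titles alternate between CD4 and CD8, but replicate numbers follow record order and no label says which CD4 and CD8 libraries came from the same mouse. The p-values that compare the cell types treat all libraries as independent. In 14 results, none of them called, the sign turned in at least 1 fit, with turned values up to 0.386 in size and adjusted p of at least 0.485. With library size as the scale, CD8 over CD4 in zinc-free pMT-10 mice was -0.076 for Slamf6 and -0.01 for Ly9. Leaving out each library gave, for CD8 over CD4 in zinc-free pMT-10 mice, -0.386 to 0.199 for Slamf6, -0.121 to 0.185 for Ly9 and -0.291 to 0.083 for Sh2d1a, and in zinc-treated C57BL/6 mice -0.035 to 0.629 for Slamf7 and -0.233 to 0.108 for Cd48. For zinc-free pMT-10 over zinc-treated C57BL/6 it gave, in CD4 cells, -0.255 to 0.072 for Cd48, -0.009 to 0.044 for Ly9 and -0.006 to 0.099 for Slamf1, and in CD8 cells -0.229 to 0.077 for Ly9. For zinc-treated pMT-10 over zinc-free pMT-10 in CD8 cells it gave -0.097 to 0.134 for Crtam, -0.251 to 0.055 for Ly9, -0.008 to 0.577 for Slamf6 and -0.003 to 0.371 for Sh2d1a. The Slamf7 CD8 change minus CD4 change against zinc-free pMT-10 ran from -0.521 to 0.058. Counts of genes called over the whole panel moved more, and the cause was not tested. Between the controls they were 16 in CD4 cells and 11 in CD8 cells, 83 and 107 without the filter, 33 and 42 with DESeq2, and 7 to 11 in CD4 cells leaving out each library. The CD8 change minus CD4 change gave 621 genes against zinc-treated C57BL/6, 1055 without the filter, 1030 with DESeq2, 385 with only the groups compared and 264 to 847 leaving out each library. Against zinc-free pMT-10 it gave 428, with 847, 799 and 139 to 697 under the first, second and last of these. CD8 counts of zinc-treated pMT-10 mice were 997 against zinc-treated C57BL/6 (583 with only the groups compared, 596 to 953 leaving out each library) and 876 against zinc-free pMT-10 (580, and 568 to 764). CD4 counts were 2115 and 2125, and ran from 1361 to 2182 and from 1386 to 2120 leaving out each library, both lowest without zinc-treated pMT-10 CD4 replicate 1. Depth limits only Cd84 among the members.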

Other observations

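Genes of follicular helper and innate-like T cells, for which SAP is needed in mice, were read from a list of 15 panel genes, of which 13 were tested. In CD4 cells 3 were higher and 2 lower in zinc-treated pMT-10 than in zinc-treated C57BL/6 mice (all genes 9.29% and 9.40%), with a median log2 difference of -0.06, and 5 were higher and 3 lower than in zinc-free pMT-10 mice (all genes 9.38% and 9.40%), with a median of 0.22. The median of all genes was -0.05 in each. In CD8 cells 3 were higher and 1 lower against zinc-treated C57BL/6 (all genes 5.68% and 3.13%), with a median of 0. Against zinc-free pMT-10 3 were higher and 0 lower there (all genes 5.10% and 2.64%), with a median of 0.46. All genes had a median of 0 in both. Eomes was higher in CD4 cells against both controls (log2 4.05, adjusted p = 1.42e-08, for C57BL/6 and log2 4.77, adjusted p = 3.14e-09, for zinc-free pMT-10). Some fits with a CD4 library left out lost the CD4 call of Pdcd1, higher against zinc-treated C57BL/6 (log2 1.40 with all libraries, adjusted p up to 0.121). Some also lost that of Cxcr5, higher against zinc-free pMT-10 (log2 0.70 with all libraries, up to 0.0619). Klrb1c, the gene of the natural killer receptor NK1.1, averaged 9.44 ± 5.15 CPM in CD4 cells of zinc-treated pMT-10 mice, 171 ± 11.8 CPM in zinc-free pMT-10 mice and 39.9 ± 5.08 CPM in zinc-treated C57BL/6 mice (SD, n = 3 each). It was lower against both controls (log2 -4.19, adjusted p = 4.12e-06 against zinc-free pMT-10, and log2 -2.09, adjusted p = 0.00186 against zinc-treated C57BL/6), and it also differed between the controls (log2 2.10, adjusted p = 0.0481). Zbtb16, the gene of PLZF, the factor that sets up natural killer T cells, averaged 0.824 ± 0.887 CPM in zinc-treated pMT-10 mice, 15.5 ± 3.31 CPM in zinc-free pMT-10 mice and 4.98 ± 4 CPM in zinc-treated C57BL/6 mice. It was called against zinc-free pMT-10 (log2 -4.19, adjusted p = 0.00681, though 0.0807 with DESeq2, and log2 -5.48 without zinc-treated pMT-10 CD4 replicate 1) and not against zinc-treated C57BL/6 (log2 -2.56, adjusted p = 0.0816).

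Bcl6, the transcription factor of follicular helper cells, averaged 58.2 ± 9.75 CPM in CD4 cells of zinc-treated pMT-10 mice, 32 ± 8.32 CPM in zinc-free pMT-10 mice and 40.4 ± 4.94 CPM in zinc-treated C57BL/6 mice (SD, n = 3 each). It was called against zinc-free pMT-10 (log2 0.86, adjusted p = 0.00801), but not without zinc-treated pMT-10 replicate 1 (0.75, adjusted p = 0.0539) or zinc-free pMT-10 replicate 3 (0.70, adjusted p = 0.0573), and it was not called against zinc-treated C57BL/6 (log2 0.53, adjusted p = 0.104). Tox2, another factor of these cells, was higher in CD4 cells of zinc-treated pMT-10 mice against both controls, at 145 ± 24.7 CPM, with 13.5 ± 0.812 CPM in zinc-free pMT-10 mice and 38.8 ± 21.7 CPM in zinc-treated C57BL/6 mice (log2 3.43, adjusted p = 8.17e-05, for zinc-free pMT-10 and log2 1.91, adjusted p = 0.00656, for C57BL/6). The receptor gene Icos was lower, at 85.8 ± 5.44 CPM, with 145 ± 11.9 CPM and 130 ± 33 CPM in the same order (log2 -0.76, adjusted p = 0.00492, for zinc-free pMT-10 and log2 -0.60, adjusted p = 0.0229, for C57BL/6). The second Icos call was lost without zinc-treated C57BL/6 replicate 1 or 3 or zinc-treated pMT-10 replicate 1 or 3 (adjusted p from 0.0672 to 0.112). Tox2 was higher in CD8 cells too. The values there were log2 6.73 against zinc-treated C57BL/6 (adjusted p = 2.34e-05) and log2 8.75 against zinc-free pMT-10 (adjusted p = 8.94e-06). The first was 11.32 without C57BL/6 CD8 replicate 3. The second was 11.31 without zinc-free pMT-10 CD8 replicate 1 and 8.07 without replicate 3. The sizes of these CD8 folds thus depend on single control libraries and are not firm.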
